A study of Mus musculus with 24 samples.

Results

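A set of 10 genes, most of them markers of T cells, was followed in whole blood of irradiated mice, namely Cd3d, Cd3e, Cd3g, Cd4, Cd8a, Cd8b1, Thy1, Cd5, Lck and Dapl1. They were chosen by name out of 24573 gene symbols on the array, as 8 T cell surface genes, the kinase Lck and Dapl1. Other T cell surface genes, such as Cd2, Cd28 and Il7r, are on the array but not in the set. All 10 had a probe and all 10 were among the 13108 genes tested. The study exposed male 129S/J mice, wild type or Parp1-/-, to X rays or to sham handling and took blood from the heart 24 h later. Parp1 encodes an enzyme of the DNA damage response that attaches ADP-ribose chains to proteins, and the question was how blood expression responds to radiation in its absence. One mouse gave 1 array.

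The 5 groups were sham wild type at 0 Gy (n = 5), wild type at 6 Gy (n = 5), wild type at 8.8 Gy (n = 4), sham Parp1-/- at 0 Gy (n = 5) and Parp1-/- at 6 Gy (n = 5). Both 8.8 Gy in wild-type and 6 Gy in Parp1-/- mice kill 50% of animals within 30 days, as the series design states, so these groups match in lethality and the 6 Gy groups match in dose. Groups follow the labels, and the Parp1 transcript goes against the label of 1 Parp1-/- 6 Gy array and 1 wild type 8.8 Gy array. The label of 1 wild type 6 Gy array is not settled by that transcript. No group received another agent. The part of Parp1 that the null allele lacks is not stated in the labels. Globin RNA was removed before labelling.

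The T cell receptor recognises antigen but cannot signal by itself. It relies on the CD3 chains, whose cytoplasmic motifs are phosphorylated by the Src-family kinase Lck, which is carried on the co-receptors CD4 and CD8. Helper T cells carry CD4 and cytotoxic T cells carry CD8, and resting lymphocytes of the blood are known as among the most radiation-sensitive cells of the body.

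What each value measures is set by a short stretch of transcript, and these stretches are shown because the members differ in how they are read. The arrays carry probes of 60 bases. The Cd3d probe covers 232 bases of the genome (mm9, chromosome 9, 44794171 to 44794402, plus strand), so it crosses a splice junction. The main probes of Cd3e, Lck, Thy1 and Cd4 contain the letters AATAAA, the polyadenylation hexamer of many transcripts. Of the 10 main probes 4 hold these letters, against 12.6% of 39429 probes of the array. The hexamer is in capitals in the 30-base stretches that hold it.

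Cd3d probe: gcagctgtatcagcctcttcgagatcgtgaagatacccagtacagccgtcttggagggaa
Cd3e probe, 30 bases: taatgcaaaaggcAATAAAgtgtattggct
Lck probe, 30 bases: tgcctagcacacaccaggagctcAATAAAa
Thy1 probe, 30 bases: aggaaagaaaactgcacAATAAAaccaagc
Cd4 probe, 30 bases: agctgacagaaaAATAAAggctataaataa

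These 4 probes lie at chromosome 9, 44806828 to 44806887, minus strand (Cd3e), chromosome 4, 129225614 to 129225673, minus strand (Lck), chromosome 9, 43856591 to 43856650, plus strand (Thy1) and chromosome 6, 124814711 to 124814770, minus strand (Cd4), all in mm9. The other main probes lie at chromosome 9, 44777868 to 44777927 (Cd3g), chromosome 6, 71328911 to 71328970 (Cd8a), chromosome 6, 71287231 to 71287290 (Cd8b1), chromosome 19, 10792701 to 10792760 (Cd5) and chromosome 2, 59342824 to 59342883 (Dapl1). The main probes of 8 members were well above background on all 24 arrays. Dapl1 was well above background on 21 arrays and Cd8a on 15.

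Promoter sequence was at hand from RefSeq (GRCm38.p6) for 7 members, Cd3d, Cd3e, Cd3g, Cd5, Cd8a, Dapl1 and Lck. Lck has 2 starts, 15269 bases apart, which makes 8 promoters. Cd3g and Cd3d start 1355 bases from each other on opposite strands, and Cd3d and Cd3e start 27825 bases apart, so the 3 CD3 genes form a cluster on chromosome 9. The 5 promoters with a match to the ETS core AGGAAG on either strand (CTTCCT on the other) are printed as the 250 bases before the start, to show where these letters lie. Those members did not all respond alike, since Cd3e fell less than Lck and Cd5 in wild-type mice. Capitals mark every match to the motifs searched.

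Cd3d, chr9:44981536-44981785, plus strand: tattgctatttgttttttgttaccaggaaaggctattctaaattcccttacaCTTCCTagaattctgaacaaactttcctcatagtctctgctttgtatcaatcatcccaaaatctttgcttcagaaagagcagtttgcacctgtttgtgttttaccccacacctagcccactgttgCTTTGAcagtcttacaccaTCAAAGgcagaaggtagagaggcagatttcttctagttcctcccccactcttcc
Cd3e, chr9:45009612-45009861, minus strand: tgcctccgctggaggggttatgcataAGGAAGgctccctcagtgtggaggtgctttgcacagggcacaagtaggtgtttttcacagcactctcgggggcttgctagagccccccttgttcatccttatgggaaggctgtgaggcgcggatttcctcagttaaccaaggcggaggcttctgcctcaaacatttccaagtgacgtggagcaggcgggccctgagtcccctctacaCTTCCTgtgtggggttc
Cd5, chr19:10738975-10739224, minus strand: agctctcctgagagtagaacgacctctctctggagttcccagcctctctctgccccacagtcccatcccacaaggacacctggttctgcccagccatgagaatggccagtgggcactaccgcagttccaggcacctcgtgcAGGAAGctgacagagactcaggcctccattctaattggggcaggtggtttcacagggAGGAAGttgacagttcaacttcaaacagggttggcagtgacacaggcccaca
Lck, upstream start, chr4:129573642-129573891, minus strand: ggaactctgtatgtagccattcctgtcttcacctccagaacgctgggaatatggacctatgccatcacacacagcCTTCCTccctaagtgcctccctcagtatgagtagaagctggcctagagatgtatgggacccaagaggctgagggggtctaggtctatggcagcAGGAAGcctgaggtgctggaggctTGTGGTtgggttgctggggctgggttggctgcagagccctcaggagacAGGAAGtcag
Lck, downstream start, chr4:129558373-129558622, minus strand: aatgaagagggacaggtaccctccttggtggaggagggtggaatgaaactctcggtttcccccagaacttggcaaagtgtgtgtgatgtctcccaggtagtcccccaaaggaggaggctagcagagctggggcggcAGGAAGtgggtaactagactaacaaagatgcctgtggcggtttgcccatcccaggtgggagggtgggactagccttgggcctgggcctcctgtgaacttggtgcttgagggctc

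The ETS letters were in 5 of the 8 promoters and in 29.5% of 32851 promoter windows of 250 bases. The GATA letters AGATAA were in 1 (Cd3g, against 9.99% of windows), the RUNX letters TGTGGT in 1 (the upstream Lck start, 14%), the TCF/LEF letters CTTTGA in 1 (Cd3d, 13.8%) and the E protein letters CAGCTG in 0 (13.0%). Both strands were searched and no motif overlaps another. The windows of Cd8a and Dapl1 held none of the 5 motifs. A match describes the letters of the window and is not evidence of binding.

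All levels below are log2 signals relative to the 75th percentile of the same array, and differences between groups are differences of these log2 levels. SE is the moderated standard error of limma, and a gene was called at a limma p adjusted over all 13108 genes under 0.05. Of all probes, 36.4% to 41.4% were well above background on the sham Parp1-/- arrays and 40.9% to 57.5% on the arrays of the other 4 groups. The transcript of Parp1 itself was read first as a check of the labels. It stood between -0.94 and -0.35 on the 5 sham wild-type arrays, well above background on each, and between -3.82 and -2.29 on the 5 sham Parp1-/- arrays, well above background on none. Wild type 6 Gy arrays gave -2.33 to -1.27, with 3 of 5 well above background. The -2.33 came from wild type 6 Gy replicate 2, which was not well above background. It lay within the range of the sham Parp1-/- arrays, so the transcript does not settle the label of that array. The array labelled Parp1-/- 6 Gy replicate 1 gave -1.67, well above background, whereas replicates 2 to 5 gave -5.01 to -3.45, none above it. A level of -3.95, not well above background, came from the array labelled wild type 8.8 Gy replicate 4, whereas replicates 1 to 3 gave -1.59 to -1.25. The array labelled Parp1-/- 6 Gy replicate 1 was also nearly the same as wild type 8.8 Gy replicate 2, with an SD of log2 differences of 0.168 over 7547 genes where the median of the 276 pairs was 0.921. The labels of Parp1-/- 6 Gy replicate 1 and wild type 8.8 Gy replicate 4 are therefore in doubt, and both arrays were kept in the group of their label. Counts of members called in each response to radiation were the same without Parp1-/- 6 Gy replicate 1 and either of the wild type 8.8 Gy arrays named (7, 8 and 9).

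All 10 members had lower group means after irradiation than in the sham group of their genotype, except that the difference of Cd4 at 8.8 Gy was 0.14 under quantile normalization, and most of these falls passed the test. At 6 Gy in wild-type mice 7 of 10 members fell and 0 rose, where 10.9% of all genes tested fell and 15.5% rose. At 8.8 Gy in wild-type mice 8 fell and 0 rose, against 9.12% and 7% of all genes. At 6 Gy in Parp1-/- mice 9 fell and 0 rose, against 10.6% and 12.3%, with Cd8b1 among the 9 by a call that several other settings lost. Median centring of the arrays, which moved the median of all genes at 6 Gy to -0.74, gave 5609 genes lower and 546 higher there in place of 1425 and 2030, and called all 10 members, Cd3e (-1.45), Cd4 (-1.25) and Cd8b1 (-1.17) included. Every irradiated array lay below every sham array for 7, 8 and 8 members in the 3 responses, as it did for 9.57%, 11.5% and 6.02% of all genes, while every irradiated array lay above for 0 members and 8.95%, 6.64% and 9.27% of genes. The responses to 6 and 8.8 Gy share the sham wild-type group. The median difference of the 10 members was -1.64, -2.53 and -1.83 in these responses, beside medians of 0.04, 0.03 and -0.08 over all genes tested. In whole blood, fewer T cells and less of these RNAs per cell cannot be told apart.

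**Figure D1:**
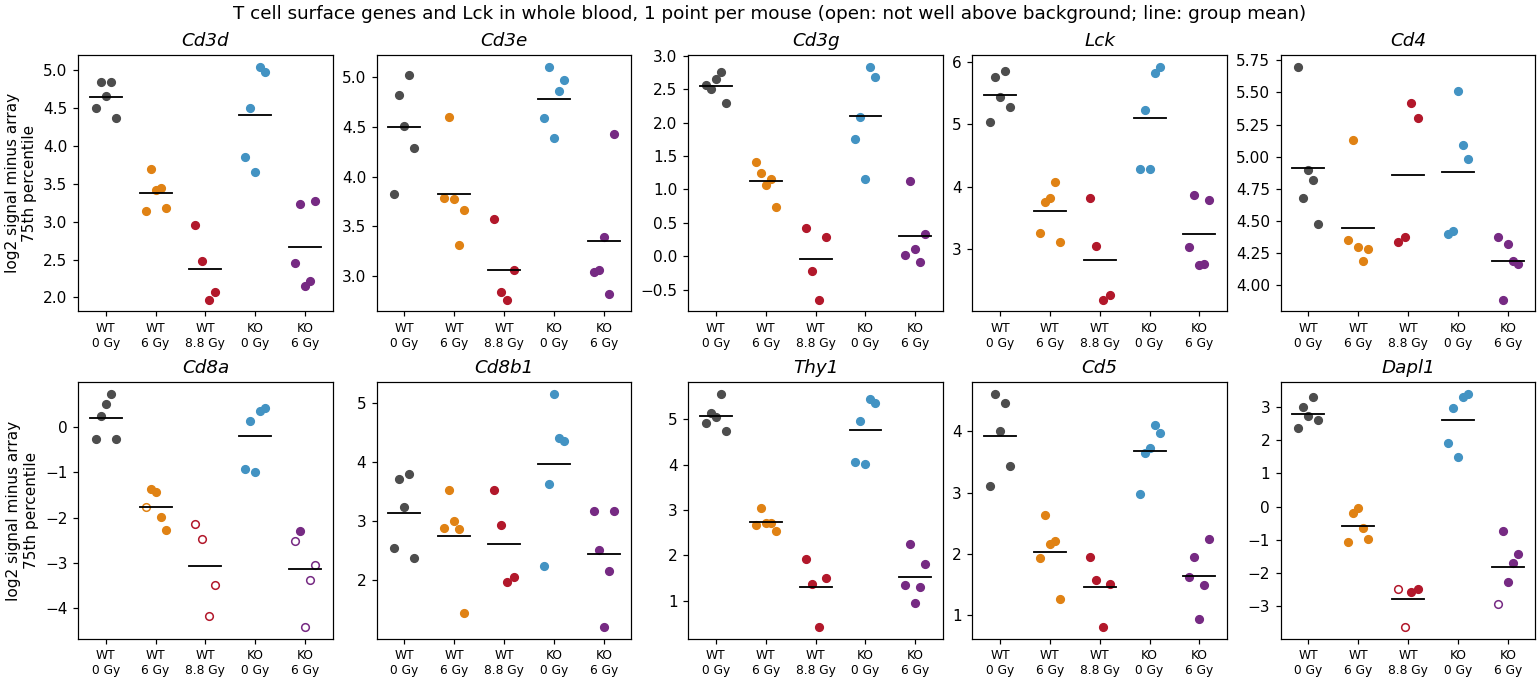
Level of each member on every array, as log2 signal minus the array's 75th percentile, by group, with the vertical scale of each panel its own. Points are mice, open points were not well above background and lines are group means. Thy1 and Dapl1 show no overlap between sham and irradiated groups, whereas Cd4 and Cd8b1 overlap between wild-type groups.

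Every T cell receptor at the cell surface carries the CD3 chains. Cd3d, which encodes the delta chain, stood at 4.50, 4.84, 4.66, 4.84 and 4.37 in sham wild-type mice, at 3.14, 3.69, 3.42, 3.44 and 3.18 at 6 Gy and at 2.96, 2.48, 1.97 and 2.07 at 8.8 Gy. In Parp1-/- mice Cd3d stood at 3.85, 4.50, 3.66, 5.05 and 4.98 without and at 2.45, 3.23, 2.15, 2.22 and 3.27 with 6 Gy. Every irradiated array was below every sham array of its genotype, and the sham Parp1-/- arrays were spread more widely than the sham wild-type arrays. Cd3d fell, with log2 differences of -1.27 ± 0.287 (SE) at 6 Gy (2.41-fold, limma adjusted p = 0.00403), -2.27 ± 0.304 at 8.8 Gy (4.84-fold, adjusted p = 4.62e-05) and -1.75 ± 0.287 in Parp1-/- mice (3.35-fold, adjusted p = 0.000209).

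Cd3g encodes the gamma chain. It stood at 2.56, 2.51, 2.65, 2.76 and 2.29 in sham wild-type mice, at 1.41, 1.25, 1.06, 1.16 and 0.74 at 6 Gy and at 0.43, -0.22, -0.65 and 0.29 at 8.8 Gy. The Parp1-/- values of Cd3g were 1.75, 2.09, 1.16, 2.84 and 2.69 without and 0.02, 1.12, 0.11, -0.08 and 0.33 with 6 Gy. No irradiated array reached the sham range, and the nearest approach was in Parp1-/- mice, where 1.12 on replicate 2 at 6 Gy lay just under 1.16 on sham replicate 3. Cd3g fell, with log2 differences of -1.43 ± 0.292 at 6 Gy (limma adjusted p = 0.00213), -2.59 ± 0.309 at 8.8 Gy (adjusted p = 1.09e-05) and -1.80 ± 0.292 in Parp1-/- mice (adjusted p = 0.00018).

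Cd3e, which encodes the epsilon chain that pairs with both of the others, had the smallest differences of the CD3 chains in each response, except at 8.8 Gy with normexp correction (-2.12, against -1.75 for Cd3g). Its level was 3.83, 4.82, 4.51, 5.03 and 4.29 in sham wild-type mice, 3.78, 4.60, 3.77, 3.31 and 3.66 at 6 Gy and 3.57, 2.84, 2.76 and 3.06 at 8.8 Gy. In Parp1-/- mice Cd3e gave 4.59, 5.11, 4.39, 4.86 and 4.97 without and 3.04, 3.06, 3.39, 2.82 and 4.43 with 6 Gy. The wild-type groups overlapped at 6 Gy, where replicate 2 lay among the sham arrays, but not at 8.8 Gy, and in Parp1-/- mice replicate 5 at 6 Gy lay just above the lowest sham array. The 6 Gy difference of -0.67 ± 0.297 in wild-type mice did not pass (limma adjusted p = 0.0948), and without wild type 6 Gy replicate 2 it was -0.87 and passed (adjusted p = 0.0475). Cd3e fell, with log2 differences of -1.44 ± 0.315 at 8.8 Gy (limma adjusted p = 0.00412) and -1.44 ± 0.297 in Parp1-/- mice (adjusted p = 0.00153). With normexp background correction the Parp1-/- difference was -0.88 and did not pass (adjusted p = 0.0598).

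Lck, the kinase that phosphorylates the CD3 chains, stood in sham wild-type blood at 5.03, 5.75, 5.43, 5.85 and 5.27. It stood at 3.26, 3.76, 3.82, 4.07 and 3.12 at 6 Gy and at 3.81, 3.05, 2.19 and 2.27 at 8.8 Gy. In Parp1-/- mice Lck stood at 4.28, 5.23, 4.28, 5.81 and 5.92 without and at 3.03, 3.87, 2.75, 2.76 and 3.78 with 6 Gy. Irradiated and sham arrays did not overlap in either genotype. Lck fell, with log2 differences of -1.86 ± 0.363 at 6 Gy (3.63-fold, limma adjusted p = 0.00158), -2.63 ± 0.385 at 8.8 Gy (6.2-fold, adjusted p = 0.000126) and -1.87 ± 0.363 in Parp1-/- mice (3.64-fold, adjusted p = 0.00096).

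Of the co-receptor genes Cd8a fell in every response and Cd4 did not pass in any, while Cd8b1 passed in Parp1-/- mice by a call that did not hold across settings. Cd4, which marks helper T cells and is also carried by some monocytes and dendritic cells, gave 5.70, 4.68, 4.90, 4.82 and 4.48 in sham wild-type mice. At 6 Gy Cd4 gave 4.35, 5.13, 4.30, 4.19 and 4.28, and at 8.8 Gy 4.34, 4.38, 5.42 and 5.30. The 8.8 Gy arrays formed a low and a high pair on either side of most sham arrays. Among Parp1-/- mice Cd4 gave 4.40, 4.42, 5.51, 5.09 and 4.98 without and 4.38, 3.89, 4.32, 4.19 and 4.17 with 6 Gy. All of the latter were under the lowest sham array, replicate 1 just under it (4.38) and replicate 2 farthest from it (3.89). The differences of Cd4 were -0.46 ± 0.278 at 6 Gy (limma adjusted p = 0.218), -0.06 ± 0.295 at 8.8 Gy (adjusted p = 0.915) and -0.69 ± 0.278 in Parp1-/- mice (adjusted p = 0.0763), and none passed. The 8.8 Gy difference of Cd4 was 0.14 under quantile normalization and 0.03 in the authors' deposited values, so that its direction was not settled. The Parp1-/- difference passed without sham Parp1-/- replicate 1 (-0.81, adjusted p = 0.0447). A second Cd4 probe averaged -4.21 and was well above background on 1 of 24 arrays, so it carried no second reading.

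Cd8a, the alpha chain needed in every form of CD8, fell in every response. It stood at -0.26, 0.25, 0.51, 0.73 and -0.26 in sham wild-type mice and at -1.77, -1.38, -1.44, -1.99 and -2.27 at 6 Gy, where replicate 1 was not well above background. At 8.8 Gy Cd8a gave -2.15, -2.48, -4.18 and -3.48, none well above background. For Parp1-/- mice it gave -0.93, 0.13, -0.99, 0.35 and 0.42 without and -2.52, -2.29, -4.42, -3.37 and -3.05 with 6 Gy, where only replicate 2 was well above background. No irradiated array reached the sham range of its genotype. Cd8a fell, with log2 differences of -1.96 ± 0.411 at 6 Gy (limma adjusted p = 0.00249) and -2.93 ± 0.411 in Parp1-/- mice (adjusted p = 4.58e-05). At 8.8 Gy Cd8a also passed as lower (limma adjusted p = 4.58e-05). The size there is not settled, because no array of that group was well above background. Setting the sham mean against a floored 8.8 Gy mean gave 8.35-fold. In that mean each array entered with the higher of the probe's own signal and the array's lowest signal well above background over all probes. This is not a lower bound, since that lowest signal is not the limit of the Cd8a probe. With normexp correction, whose offset of 50 lifts dim signals, the differences of Cd8a shrank to -0.89, -0.50 and -1.18 for 6 Gy, 8.8 Gy and Parp1-/- and each still passed. A second Cd8a probe, well above background on 11 of 24 arrays, differed by -0.89, -2.51 and -2.25 in the same order.

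Cd8b1, the beta chain found mainly on conventional cytotoxic T cells, was more scattered. Sham wild-type mice gave 2.54, 3.71, 3.24, 3.79 and 2.38, mice at 6 Gy 2.89, 3.52, 3, 2.87 and 1.45, and mice at 8.8 Gy 3.53, 2.93, 1.97 and 2.05. Among Parp1-/- mice Cd8b1 gave 2.25, 3.63, 5.15, 4.41 and 4.36 without and 3.18, 2.51, 1.21, 2.15 and 3.17 with 6 Gy. Sham and irradiated arrays overlapped in both genotypes, and sham Parp1-/- replicate 1 lay far below the rest of its group. The differences of -0.39 ± 0.5 at 6 Gy (limma adjusted p = 0.591) and -0.51 ± 0.53 at 8.8 Gy (adjusted p = 0.539) did not pass. Median centring gave -1.17 at 6 Gy, which passed (limma adjusted p = 0.0266). At 8.8 Gy normexp correction gave -1.38, which passed (limma adjusted p = 0.0441), and slide as a fixed block gave 0.15. Among Parp1-/- mice the log2 difference of Cd8b1 was -1.51 ± 0.5 and passed (limma adjusted p = 0.0315), with all 5 irradiated arrays below the sham mean. The call was lost with slide as a random block (-1.23, limma adjusted p = 0.0907), with normexp correction (-1, adjusted p = 0.139), and at the same difference with the replicate block (adjusted p = 0.0537), without a filter on dim probes (adjusted p = 0.0588) and with only these 2 groups in the fit (adjusted p = 0.0743). It was also lost in turn without each of 6 arrays, namely sham Parp1-/- replicates 3, 4 and 5 and Parp1-/- 6 Gy replicates 2, 3 and 4, with the difference between -1.94 and -1.21 and adjusted p up to 0.0971 over all single omissions. On the 1 scan day that both groups share the difference was 0.23.

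**Figure D2:**
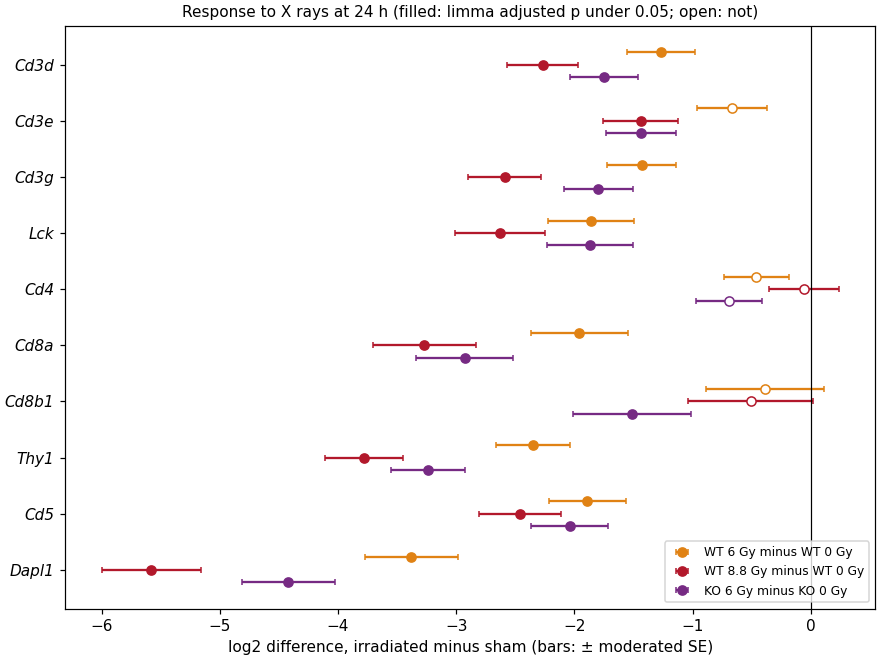
Difference in log2 level between irradiated and sham mice for each member, with bars of ± 1 moderated SE and filled points where the limma adjusted p was under 0.05. Dapl1 lies farthest left at -3.38, -5.58 and -4.42, and Cd4 lies nearest 0 in the wild-type 8.8 Gy response at -0.06. The Cd8a point for wild type 8.8 Gy rests on arrays not well above background.

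Thy1 and Cd5 are surface proteins of mature T cells outside the receptor complex. Thy1, a small glycoprotein anchored in the membrane by lipid and a classical marker of mouse T cells, stood at 4.91, 5.14, 5.05, 5.56 and 4.74 in sham wild-type mice. It stood at 2.67, 3.05, 2.71, 2.71 and 2.53 at 6 Gy and at 1.93, 1.36, 0.42 and 1.51 at 8.8 Gy. Among Parp1-/- mice Thy1 stood at 4.05, 4.96, 4.02, 5.45 and 5.36 without and at 1.34, 2.26, 0.94, 1.30 and 1.81 with 6 Gy. The gap between the lowest sham and the highest irradiated array was wider than the spread within any of these groups in wild-type mice. Thy1 fell, with log2 differences of -2.35 ± 0.314 at 6 Gy (5.09-fold, limma adjusted p = 4.34e-05), -3.78 ± 0.333 at 8.8 Gy (13.7-fold, adjusted p = 1.82e-07) and -3.24 ± 0.314 in Parp1-/- mice (9.43-fold, adjusted p = 6.14e-07). Among the 13108 genes ordered from the lowest difference, Thy1 was at place 81, 3 and 15 in these responses.

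Cd5 encodes a scavenger-receptor-type protein that restrains T cell receptor signalling and is also found on a subset of B cells. Its level was 3.11, 4.61, 4, 4.47 and 3.44 in sham wild-type mice, 1.93, 2.63, 2.17, 2.22 and 1.26 at 6 Gy and 1.96, 1.58, 0.81 and 1.51 at 8.8 Gy. The Parp1-/- levels of Cd5 were 2.98, 3.65, 3.73, 4.11 and 3.97 without and 1.62, 1.95, 0.94, 1.49 and 2.24 with 6 Gy. Sham and irradiated arrays were apart in both genotypes. Cd5 fell, with log2 differences of -1.89 ± 0.325 at 6 Gy (limma adjusted p = 0.000574), -2.46 ± 0.345 at 8.8 Gy (adjusted p = 7.93e-05) and -2.04 ± 0.325 in Parp1-/- mice (adjusted p = 0.00016).

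Dapl1, a small protein related to the death-associated protein DAP and not a surface protein, had the largest differences of the 10 members in all 3 responses, except at 8.8 Gy with normexp correction. There Thy1 (-3.89), Lck (-3.18), Cd3d (-2.77) and Cd5 (-2.65) differed by more than Dapl1 (-2.37). The level of Dapl1 was 2.37, 2.99, 2.72, 3.28 and 2.60 in sham wild-type mice and -1.08, -0.18, -0.05, -0.64 and -0.98 at 6 Gy. At 8.8 Gy Dapl1 gave -2.47, -3.62, -2.57 and -2.48, of which replicates 1 and 2 were not well above background. Among Parp1-/- mice it gave 1.91, 2.97, 1.5, 3.28 and 3.38 without and -2.93, -0.73, -2.28, -1.70 and -1.42 with 6 Gy, where replicate 1 was not well above background. Sham arrays were all above 1 and irradiated arrays all below 0. Dapl1 fell, with log2 differences of -3.38 ± 0.396 at 6 Gy (10.4-fold, limma adjusted p = 1.03e-05), -5.58 ± 0.420 at 8.8 Gy (47.7-fold, adjusted p = 4.89e-08) and -4.42 ± 0.396 in Parp1-/- mice (21.4-fold, adjusted p = 3.74e-07). It was the lowest of all 13108 differences at 8.8 Gy and in Parp1-/- mice, and at place 8 at 6 Gy. The size of the Dapl1 fall depended on how dim signals were treated: with normexp correction the differences were -2.29, -2.37 and -2.55, each of which passed.

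The arrays were scanned on 4 days, which did not cross the groups. All sham wild-type arrays were scanned on day 4 and all irradiated wild-type arrays on day 3, so that radiation and scan day cannot be told apart within wild-type mice. Sham Parp1-/- arrays were scanned on days 1 and 2 and Parp1-/- 6 Gy arrays on days 1, 3 and 4. On day 1, with 2 sham arrays and 1 irradiated array, the Parp1-/- differences were -3.86 for Dapl1, -2.69 for Thy1, -2.65 for Cd8a, -1.59 for Cd3g, -1.07 for Cd5, -0.97 for Lck, -0.91 for Cd3d, -0.42 for Cd3e and -0.24 for Cd4. With day as a fixed term, which links wild-type sham and irradiated arrays only through Parp1-/- 6 Gy arrays, the wild-type differences of Thy1 were -2.56 at 6 Gy (limma adjusted p = 0.18) and -3.99 at 8.8 Gy (adjusted p = 0.0148). In that fit 0 members passed at 6 Gy, 3 at 8.8 Gy (Cd3g, Thy1 and Dapl1) and 1 in Parp1-/- mice (Dapl1). The shares of all genes in that fit are not set beside these counts. With slide as a fixed term 0 members passed in each response, and of all 13108 genes 0, 0 and 54 passed at 6 Gy, at 8.8 Gy and in Parp1-/- mice. With slide as a random term 7, 8 and 8 members passed, counts given without the shares of all genes.

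Members did not fall by the same amount, and this was tested by the difference between 2 members on the same array. Subtracting 1 value from a whole array cannot move it, but quantile normalization and background correction can. Under quantile normalization Cd4 and Cd8a differed by -0.26 and -2.35 at 6 Gy in wild-type mice, in place of -0.46 and -1.96. In all 6 pairs of members were compared in 3 responses, and the exact permutation p-values (two-sided) were adjusted over these 18 tests. The smallest p that the group sizes allow is 0.00794. Cd3e served as the common partner, although Cd3d and Cd3g proteins are CD3 chains as well and both genes fell further than Cd3e in wild-type mice. At 8.8 Gy Cd3d and Cd3g differed by -2.27 and -2.59, beside -1.44 for Cd3e, -2.63 for Lck and -2.46 for Cd5. A shift against Cd3e therefore need not hold against the other CD3 chains, which was not tested.

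Thy1 fell further than Cd3e in each response. The log2 difference between Thy1 and Cd3e averaged 0.58 ± 0.292 (SD, n = 5) in sham wild-type mice and -1.09 ± 0.338 (SD, n = 5) at 6 Gy, a shift of -1.68 (exact permutation p = 0.00794, adjusted p = 0.011). The shift was -2.34 at 8.8 Gy and -1.80 in Parp1-/- mice, each at that same exact p. Dapl1 shifted against Cd3e by -2.71, -4.14 and -2.98 in the same order, again each at the smallest exact p. With normexp correction the 8.8 Gy shift of Dapl1 against Cd3e was -0.26 (exact permutation, adjusted p = 0.639).

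Lck and Cd5 shifted against Cd3e in wild-type mice but did not pass in Parp1-/- mice. Lck shifted by -1.19 at 6 Gy and -1.19 at 8.8 Gy (exact permutation, adjusted p = 0.011 for each) and by -0.43 in Parp1-/- mice (exact permutation p = 0.262). Cd5 shifted by -1.21 and -1.02 in wild-type mice (exact permutation, adjusted p = 0.011 for each), of which the 8.8 Gy shift was -0.53 with normexp correction and did not pass (adjusted p = 0.0519), and by -0.60 in Parp1-/- mice (exact permutation p = 0.111, adjusted p = 0.118). Whether the genotypes differ in these shifts was not tested.

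The change between Cd4 and Cd8a depended on the treatment of dim signals, in size and at 8.8 Gy also in direction. Cd4 was not paired with Cd8b1, the CD8 chain that was well above background on all 24 arrays. At 6 Gy, at 8.8 Gy and in Parp1-/- mice Cd8b1 differed by -0.39, -0.51 and -1.51. For Cd4 these differences were -0.46, -0.06 and -0.69. The difference between Cd4 and Cd8a rose by 1.5 at 6 Gy (exact permutation p = 0.0159, adjusted p = 0.019), by 3.21 at 8.8 Gy (p = 0.00794, adjusted p = 0.011) and by 2.24 in Parp1-/- mice (p = 0.0159, adjusted p = 0.019). Cd8a also fell against Cd8b1, with shifts of -1.57 at 6 Gy and -2.75 at 8.8 Gy (exact permutation, adjusted p = 0.011 for each) and of -1.41 in Parp1-/- mice (exact permutation p = 0.0397, adjusted p = 0.0446). The Parp1-/- shift between Cd8a and Cd8b1 lost its call in 8 of 10 single omissions, all but sham Parp1-/- replicate 3 and Parp1-/- 6 Gy replicate 2, with shifts between -1.90 and -1.16. Cd8a was well above background on 0 of 4 arrays at 8.8 Gy and on 1 of 5 Parp1-/- 6 Gy arrays, so its shifts there have no settled size. With normexp correction the Cd4 and Cd8a difference moved by 0.66 at 6 Gy (exact permutation, adjusted p = 0.265), by -0.39 at 8.8 Gy (adjusted p = 0.639) and by 1.01 in Parp1-/- mice (adjusted p = 0.0286). The Cd8a and Cd8b1 difference then moved by -0.45 (exact permutation, adjusted p = 0.238), 0.88 (adjusted p = 0.0159) and -0.18 (adjusted p = 0.817). The 6 Gy call of both pairs was thus lost and the 8.8 Gy direction of both turned. For Cd8a against Cd8b1 the turned direction itself passed. In the authors' deposited values the Parp1-/- shift of Cd4 against Cd8a was 1.60 (exact permutation, adjusted p = 0.0659) and that of Cd8a against Cd8b1 -0.98 (adjusted p = 0.19), and the 8.8 Gy shift of Dapl1 against Cd3e was -3.73 (adjusted p = 0.0635).

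**Figure D3:**
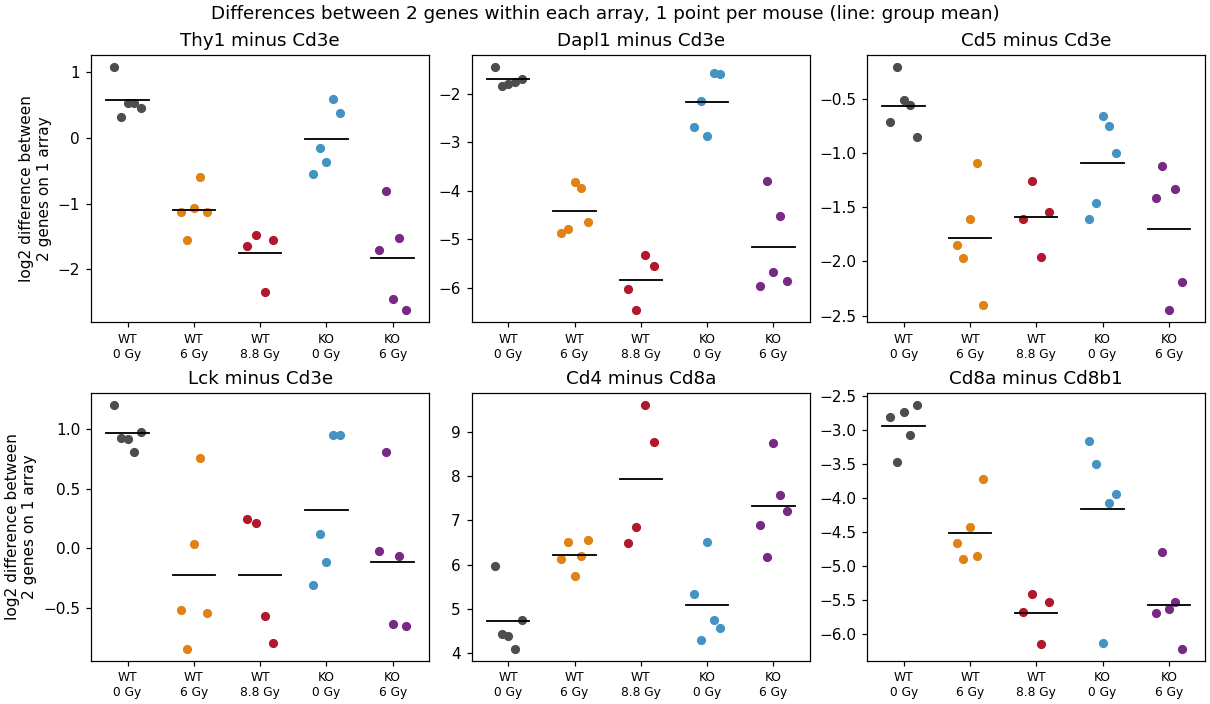
Log2 difference between 2 members on the same array, by group, for the 6 pairs compared, with lines at group means. Thy1 minus Cd3e runs from a mean of 0.58 in sham wild-type mice to -1.76 at 8.8 Gy, and Cd4 minus Cd8a from 4.73 to 7.93, where Cd8a was not well above background.

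Sham mice of the 2 genotypes overlapped in range. Their arrays shared no slide and no scan day, with wild type on day 4 and Parp1-/- on days 1 and 2. Genotype and scan day therefore cannot be told apart between the sham groups. Of the 10 members 0 were called between sham Parp1-/- and sham wild-type mice by limma, 0 had an unadjusted p under 0.05, and the differences ranged from -0.45 (Cd3g) to 0.83 (Cd8b1), with a median of -0.235 beside -0.0541 over all genes. Of all genes 0.0763% were called lower and 0.648% higher. The groups overlapped for every member, while 2.12% of all genes were apart and lower and 3.84% apart and higher. The SEs of these differences were 0.278 (Cd4) to 0.5 (Cd8b1).

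At the same dose of 6 Gy all 10 members had lower means in Parp1-/- than in wild-type mice, but only 5 of 10 did so under median centring, where the differences ran from -0.72 to 0.38. None was called by limma, where 0.656% of all genes were called lower and 0.435% higher. Apart from Cd8a the differences ranged from -1.22 (Dapl1) to -0.26 (Cd4). The 10 members had a median of -0.594 beside -0.0514 over all genes. By limma 5 members had an unadjusted p under 0.05, a count given without the share of all genes. Those were Thy1 (-1.20 ± 0.314, adjusted p = 0.0541), Cd8a (-1.36 ± 0.411, adjusted p = 0.0699), Dapl1 (-1.22 ± 0.396, adjusted p = 0.0796), Cd3g (-0.82 ± 0.292, adjusted p = 0.101) and Cd3d (-0.71 ± 0.287, adjusted p = 0.137). The size for Cd8a is not settled, since 1 of 5 Parp1-/- arrays was well above background, and it was -0.73 under quantile normalization and -0.40 with normexp correction. For Thy1 and Cd8a every Parp1-/- array was below every wild-type array, which held for 2.21% of all genes, against 2.93% in the other direction. Median centring moved the median of all genes to 0.59 and gave 183 genes lower and 3626 higher in place of 86 and 57. Thy1 was near the threshold and passed under several other settings, among them quantile normalization (-1.34, adjusted p = 0.0333) and the authors' deposited values (-1.12, adjusted p = 0.0289). It also passed without sham Parp1-/- replicate 3 (adjusted p = 0.0423), wild type 8.8 Gy replicate 1 (0.0446) or wild type 8.8 Gy replicate 3 (0.041), none of which is in the comparison. Cd8a passed without the array labelled Parp1-/- 6 Gy replicate 1 (-1.51, adjusted p = 0.0491). On scan day 3, with 5 wild-type and 3 Parp1-/- arrays, the differences were -1.22 for Thy1, -1.31 for Cd8a and -1.39 for Dapl1.

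At the matched lethality, Parp1-/- mice at 6 Gy and wild-type mice at 8.8 Gy had overlapping values for every member. These 2 groups hold both arrays whose Parp1 signal goes against the label and both arrays of the nearly identical pair. Whether samples were exchanged or hybridised again under another label was not tested. None of the 10 members was called by limma, nor was any of the 13108 genes, of which 286 had an unadjusted p under 0.05. The differences ran from -0.67 ± 0.295 for Cd4 to 0.97 ± 0.420 for Dapl1, the 2 members with an unadjusted p under 0.05 (adjusted p = 0.999 for both), and had a median of 0.258. Without Parp1-/- 6 Gy replicate 1 and wild type 8.8 Gy replicate 2 Cd4 differed by -0.88 and Dapl1 by 0.97, and without Parp1-/- 6 Gy replicate 1 and wild type 8.8 Gy replicate 4 by -0.57 and 1.35, with 0 members called either way. Of all genes 0.42% were apart and lower and 0.114% apart and higher. With normexp correction the differences of Cd4 and Dapl1 were 0.42 and -0.46, so that the direction of both depended on the background correction. That correction called Cd3d, Cd3e and Lck higher and Cd8a lower in Parp1-/- mice, in a fit where 22.2% of all genes were called lower and 22.2% higher. On day 3 alone, with 4 wild-type and 3 Parp1-/- arrays, Dapl1 differed by 0.80 and Cd4 by -0.66.

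Between the 2 doses in wild-type mice, 9 of 10 members had lower means at 8.8 Gy than at 6 Gy, all but Cd4, and 8 of 10 under median centring. With normexp correction Cd4 differed by -0.67 and Cd8a by 0.39, and Dapl1 by -0.08. None was called by limma, nor was any of all genes (49 lower and 1627 higher under median centring), of which 2375 had an unadjusted p under 0.05. The members' median was -0.89 beside -0.0871 over all genes, and 6 members had an unadjusted p under 0.05. Dapl1 differed by -2.19 ± 0.420 (adjusted p = 0.0855), Thy1 by -1.43 ± 0.333 (adjusted p = 0.0957), Cd3g by -1.17 ± 0.309 (adjusted p = 0.114) and Cd3d by -1.01 ± 0.304 (adjusted p = 0.137), and these 4 did not overlap between doses, which held for 3.04% of all genes downward and 2.35% upward. Cd3e differed by -0.77 ± 0.315 (adjusted p = 0.213). Cd8a had a lower mean at 8.8 Gy and did not pass (limma adjusted p = 0.157). The size for Cd8a is not settled, since no 8.8 Gy array was well above background and normexp correction gave 0.39. All arrays of this comparison were scanned on the same day. Quantile normalization called Thy1 and Dapl1 (limma adjusted p = 0.032 for both), and the authors' deposited values called Thy1 (-1.31, adjusted p = 0.04), while normexp correction called Cd3d, Cd3e, Lck and Thy1 lower, where it called 10.2% of all genes lower and 6.32% higher.

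The responses of the 2 genotypes were compared directly by an interaction term. It uses both sham groups, whose genotype cannot be told apart from scan day. At 6 Gy 0 of 10 members were called, with interactions from -1.12 (Cd8b1) to -0.01 (Lck) and 0 with an unadjusted p under 0.05, where 5.25% of all genes were called lower and 0.923% higher and 3361 had an unadjusted p under 0.05. Median centring turned 6 of the 10 interactions above 0 (-0.3 to 0.81) and gave 437 genes lower and 3507 higher in place of 688 and 121. Thy1 had the smallest p of the members (-0.89 ± 0.444, limma adjusted p = 0.211). Against the wild-type 8.8 Gy response the interactions ran from -1 (Cd8b1) to 1.16 (Dapl1), with 0 members called and 0 under an unadjusted p of 0.05. Of all genes 0 were called there and 1357 had an unadjusted p under 0.05. With normexp correction 6 members were called for this interaction, Cd3d, Cd3e, Cd5, Lck and Thy1 above 0 (1.24 to 1.94) and Cd8a below it (-0.69), where 27% of all genes were called lower and 21.3% higher. A p that misses the threshold does not show that the genotypes respond alike.

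The order of the group means was the same for 6 members in the scaling used here. For Cd3d, Cd3g, Lck, Thy1, Cd5 and Dapl1 it ran from sham wild type through sham Parp1-/-, wild type 6 Gy and Parp1-/- 6 Gy to wild type 8.8 Gy. In that order the sham groups overlapped for each gene, and neighbouring irradiated groups were not called different by the test across all genes. Thy1 was the 1 of these 6 whose arrays did not overlap between wild type 6 Gy and Parp1-/- 6 Gy. Part of this order rests on the scaling: under median centring Lck and Cd5 were higher in Parp1-/- than in wild-type mice at 6 Gy (0.27 and 0.24), and with normexp correction Dapl1 was lower in Parp1-/- mice at 6 Gy than in wild-type mice at 8.8 Gy. Cd3e and Cd8b1 were highest in sham Parp1-/- mice (4.79 ± 0.293 and 3.96 ± 1.10, SD, n = 5), and Cd8a was lowest in the 2 groups where it was at or near background, whose order is not settled. The mean of Cd4 in wild type 8.8 Gy (4.86 ± 0.581, SD, n = 4) came next below the sham groups.

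The members' levels over the 24 arrays were correlated with each other. Pearson's r between 2 members ranged from 0.19 to 0.98 over 45 pairs, with a median of 0.87, and after the group means were removed from -0.37 to 0.95 with a median of 0.57. All points share arrays, scaling and group structure. Against the mean of the members, which includes each gene itself, r was highest for Thy1 (0.99), Cd3d (0.982) and Cd5 (0.976) and lowest for Cd4 (0.34) and Cd8b1 (0.663). Within groups the r of Cd4 was -0.09.

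Among the genes outside the set whose levels over 24 arrays were most like the members' mean were Phgdh (r = 0.989), Fam189b (0.985), Skap1 (0.98), Evl (0.974) and Tespa1 (0.973). With group means removed the r of these 5 was between 0.872 (Tespa1) and 0.942 (Evl). Skap1 encodes an adaptor of T cell receptor signalling, Phgdh the first enzyme of serine synthesis and Evl an actin regulator. Phgdh went from 0.70 ± 0.374 (SD, n = 5) in sham wild-type mice to -0.57 ± 0.320 at 6 Gy and -1.21 ± 0.196 (n = 4) at 8.8 Gy, and from 0.54 ± 0.446 to -1.22 ± 0.418 in Parp1-/- mice. Skap1 went from 3.89 ± 0.484 to 2.27 ± 0.278 and 1.44 ± 0.539, and from 3.53 ± 0.744 to 1.68 ± 0.486. These genes were picked for their likeness over the same arrays, so that their falls add no separate evidence.

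Other genes of the T cell programme were read from 4 lists. Of 18 genes of the receptor complex and its proximal signalling, 5 fell and 0 rose at 6 Gy (median -0.43), 7 fell and 0 rose at 8.8 Gy (median -0.95), and 5 fell and 1 rose in Parp1-/- mice (median -0.90), where 10.9%, 9.12% and 10.6% of all genes fell. The 6 Gy count depended on the scaling, with 16 of the 18 lower under median centring, where 42.8% of all genes were lower and 4.17% higher, and 2 with normexp correction, where these shares were 6.3% and 4.88%. Zap70, the kinase recruited to phosphorylated CD3 chains, fell, with log2 differences of -1.09 ± 0.240 (limma adjusted p = 0.00332), -1.52 ± 0.255 (adjusted p = 0.000489) and -1.10 ± 0.240 (adjusted p = 0.00222). Sh2d1a, the adaptor SAP, fell, with log2 differences of -1.33 ± 0.363, -2.38 ± 0.385 and -1.70 ± 0.363 in the same order (limma adjusted p = 0.0115, 0.000377 and 0.00194). The gene that rose in Parp1-/- mice was Lcp2 (0.91 ± 0.241, limma adjusted p = 0.00912), an adaptor that myeloid cells and platelets use as well, named here after its value was seen.

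Of 12 co-receptors and costimulatory genes 10 were tested, since Ctla4 and Cd40lg stayed too dim. At 6 Gy 5 fell and 1 rose (median -0.65), at 8.8 Gy 6 fell and 1 rose (median -1.51) and in Parp1-/- mice 6 fell and 1 rose (median -1.42). Cd2, an adhesion and costimulatory receptor, fell, with log2 differences of -1.14 ± 0.287, -2.21 ± 0.304 and -1.63 ± 0.287 (limma adjusted p = 0.0074, 6.33e-05 and 0.000392). Cd28, the main costimulatory receptor, fell, with log2 differences of -1.44 ± 0.295 at 6 Gy (limma adjusted p = 0.00219) and -1.5 ± 0.295 in Parp1-/- mice (adjusted p = 0.00104). Cd226 was the gene that rose in all 3 responses, by 1.07 ± 0.364, 1.57 ± 0.387 and 1.43 ± 0.364 (limma adjusted p = 0.0346, 0.00837 and 0.00675), a receptor that platelets and natural killer cells also carry and that is named after its values were seen. Under median centring of the arrays 0 genes of this list rose at 6 Gy.

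Of 12 T cell transcription factors 6 fell at 6 Gy (median -0.89), 7 at 8.8 Gy (median -1.18) and 7 in Parp1-/- mice (median -1.06), and 0 rose. Tcf7, which holds T cells in a resting and self-renewing state, fell, with log2 differences of -1.55 ± 0.387 at 6 Gy and -1.77 ± 0.411 at 8.8 Gy (limma adjusted p = 0.00734 and 0.00584), and Gata3 -1.59 ± 0.396 and -1.70 ± 0.420 (adjusted p = 0.00719 and 0.00859). Bcl11b, a factor of T cell identity, fell, with a log2 difference of -1.51 ± 0.387 in Parp1-/- mice (limma adjusted p = 0.0071). Of 8 genes of naive T cell homing 4 fell in each response and 0 rose, with medians of -1, -1.18 and -0.67. Ccr9 fell, with log2 differences of -2.90 ± 0.445 at 8.8 Gy and -2.83 ± 0.419 in Parp1-/- mice (limma adjusted p = 0.000212 and 7.76e-05), and Il7r, the receptor of a survival signal for resting T cells, -1.36 ± 0.276, -1.74 ± 0.293 and -1.26 ± 0.276 (adjusted p = 0.00208, 0.000512 and 0.00233). The medians of the 4 lists were below 0 under each scaling tried, but their counts moved. At 6 Gy the transcription factors gave 11 lower under median centring and 5 with normexp, the homing genes 8 and 3 and the co-receptor and costimulatory genes 6 and 3. Of all genes 42.8% and 6.3% were lower in these 2 fits. In Parp1-/- mice normexp gave 4 transcription factors and 1 homing gene lower, counts given without the share of all genes. With slide as a fixed term 0 genes of these lists passed.

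**Figure D4:**
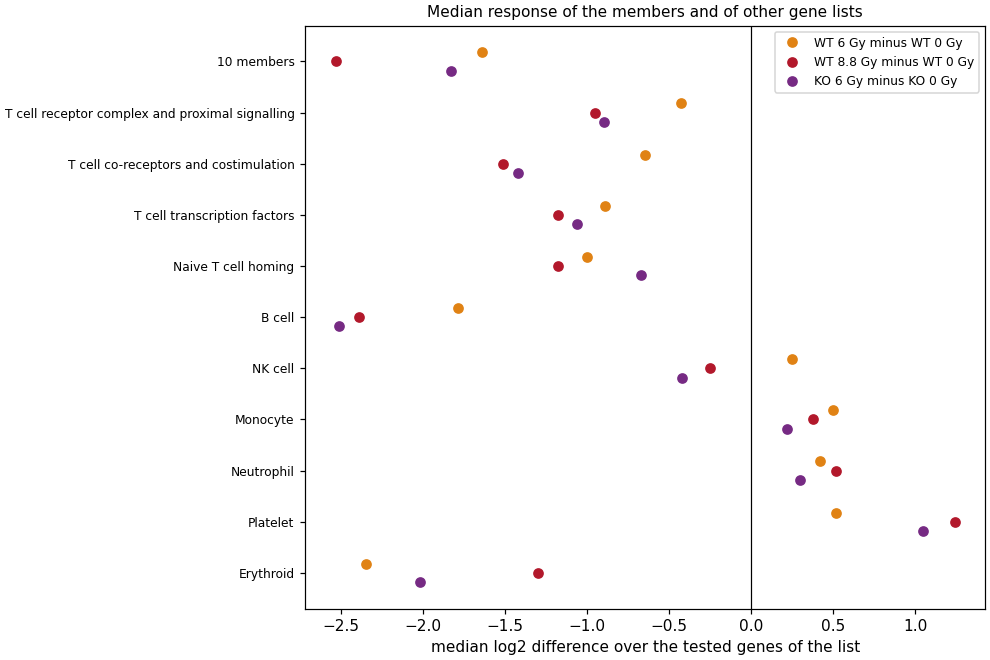
Median log2 difference between irradiated and sham mice over the tested genes of each list, with the 10 members on top, for the 3 responses. The medians of the members and of the B cell list lie at or left of -1.64 in all 3, and the platelet list lies right of 0 in all 3, though left of it at 6 Gy under median centring (-0.26).

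Markers of other blood cells were read the same way. B cell markers fell in 8 of 11 genes at 6 Gy, 9 at 8.8 Gy and 9 in Parp1-/- mice, with medians of -1.79, -2.39 and -2.51, and the mean level of the list was 0.68 to 1.14 on sham wild-type arrays against -1.20 to -0.34 at 6 Gy. Erythroid markers fell in 6, 4 and 6 of 10 genes (medians -2.35, -1.30 and -2.02). Platelet markers rose in 0, 4 and 4 of 10 genes (medians 0.52, 1.24 and 1.05), neutrophil markers rose in 3, 3 and 1 and fell in 0, 0 and 2 of 10, and monocyte markers rose in 1, 0 and 1 and fell in 0, 1 and 1 of 10. Natural killer cell markers fell in 0, 1 and 2 of 7 genes. Under median centring the medians of the neutrophil, monocyte and platelet lists at 6 Gy were -0.36, -0.28 and -0.26, so that their direction depended on the scaling. The platelet count at 8.8 Gy was 7 under quantile normalization, 8 of 9 in the authors' deposited values, 2 under median centring and 0 with normexp correction, and in Parp1-/- mice 8 under median centring and 10 with normexp. In the scaling used here 15.5%, 7% and 12.3% of all genes rose in the 3 responses. Shares under the other settings are not set beside these counts, which show only that the platelet calls depended on the scaling. Over the 4 scalings and 3 responses neutrophil markers rose in 0 to 4 genes and monocyte markers in 0 to 3.

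Markers of cells that blood should not hold were also present on some arrays. The mean level of 6 hepatocyte genes ranged from -1.98 to 7.73 on sham wild-type arrays, from -0.13 to 6.93 at 6 Gy, from -0.78 to 6.98 at 8.8 Gy, from -1.06 to 7.26 on sham Parp1-/- arrays and from -1.37 to 6.80 on Parp1-/- 6 Gy arrays. None of the 6 was called in any of the 3 responses. Heart muscle genes, 3 of 8 tested, ranged from -3.09 to 0.96 on sham arrays and from -2.65 to 5.91 on irradiated arrays, with 0 called, and Myl7 of this list was well above background on 0 arrays. Tissue macrophage markers rose in 3, 0 and 3 of 6 genes (0 or 1 at 6 Gy and 1 or 2 in Parp1-/- mice under the other scalings), with mean levels of -2.29 to 1.64 on sham and -0.9 to 3.8 on irradiated arrays, while Cd163 was well above background on 0 arrays. The part of these other cells in the levels of the T cell genes was not tested.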

How the data were processed

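RNA of whole blood was hybridised to 1-colour Agilent mouse arrays, 1 array per mouse and 24 in all, grouped by the genotype and dose in the sample titles. Per the file headers, the deposited spot intensity values were made with Agilent Feature Extraction 11.5.1 and are background-subtracted and not normalised between arrays. The marks for signals well above background are those of the same deposited files. The authors' table of log2 values lists 10214 probes, and its scaling is not given in the sources at hand. It was used as an alternative only.

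Log2 of the processed signal was taken and each array's 75th percentile over 43020 non-control spots of 44397 was subtracted. Outlier-marked spots and controls were dropped, while saturated spots stayed in. Spots of a probe were averaged (39429 probes). Probes were named through their RefSeq accession in the table of GRCm38.p6 (27508) or by the array's own name (5969), and 5952 stayed unnamed. The brightest probe stood for a gene, and genes entered the test where that probe exceeded background clearly on 4 or more arrays of any 1 group (13108 of 24573). Differences were tested with limma 3.58.1 (R 4.3.3) on 5 group means over all 24 arrays, with Benjamini-Hochberg adjustment over all genes tested within each of 9 comparisons and a threshold of 0.05, all two-sided. The script was tested on simulated data. Differences between 2 members on an array were compared by exact permutation. The number of arrays limits the precision.

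The members, the lists and the pairs of members were chosen with earlier results of these data known, and the members were given by name. The text names all members, of each T cell list at most 3 genes per comparison with the smallest adjusted p, and the 6 genes most like the members' mean, of which 1 is not reported here, apart from genes said to be named after their values were seen. Alternatives were median centring, quantile normalization, normexp (offset 50) on the mean and background signals, the authors' table, other probe filters, slide and scan day as blocks, the replicate block, and leaving out arrays.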

Additional observations from a re-analysis of the deposited data

Results flagged for a closer look

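Among 50 sets of values (10 members in 5 groups), 2 held an array far from the rest of its group by Dixon's test, where chance gives about 1 in 20. Cd4 stood at 5.13 on wild type 6 Gy replicate 2, against 4.35 on the next highest array of the group. Dapl1 stood at -3.62 on wild type 8.8 Gy replicate 2, against -2.57 on the next lowest, and was not well above background on that array. By the interaction test no member passed for a difference in response between genotypes, although 6 did for the 8.8 Gy response with normexp correction.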

How the results depend on the processing

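The counts of members called in the 3 responses to radiation (7, 8 and 9) stayed within 1.5 times of these under 12 of 14 settings each and in all 24 single omissions of an array. They fell to 0, 0 and 0 with slide as a fixed block and to 0, 3 and 1 with the day of scanning fixed instead, fits in which sham and irradiated wild-type arrays share no slide or day. Over all genes, 1425 were lower and 2030 higher at 6 Gy and 1195 and 918 at 8.8 Gy. These became 826 and 640 and 2414 and 2440 with normexp, 1407 and 5708 and 758 and 645 without a filter on dim probes, 987 and 735 at 6 Gy over probes above background on all arrays, and 2036 and 502 at 8.8 Gy with median centring. They were 1033 and 1269 at 6 Gy without wild type 6 Gy replicate 3, and at 8.8 Gy 741 and 663 without sham wild-type replicate 2 and 733 and 540 without wild type 8.8 Gy replicate 2. In Parp1-/- mice 1385 and 1607 became 20 and 34 with slide fixed and 19 and 38 with day fixed. The genotype comparisons moved more: at 6 Gy 86 lower and 57 higher became 0 and 0 without wild type 6 Gy replicate 2 and 485 and 113 without Parp1-/- 6 Gy replicate 1, and the 6 Gy interaction went from 688 and 121 to 21 and 3 and, without sham Parp1-/- replicate 1, to 1229 and 230. Between Parp1-/- and wild-type mice at 6 Gy 1 member was called in place of 0 under quantile normalization, the authors' values, no filter on dim probes, the mean of all probes, slide as a random block and without both Parp1-/- 6 Gy replicate 1 and wild type 8.8 Gy replicate 4. Single omissions gave 0 to 1. Against wild type 8.8 Gy normexp gave 4 for Parp1-/- 6 Gy, and for the doses in wild-type mice 4, with median centring 1, quantile normalization 2 and the authors' values 1. The interaction with the 8.8 Gy response gave 6 with normexp. The cause was not tested.

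Some single differences changed direction. Cd4 at 8.8 Gy was 0.14 under quantile normalization, 0.03 in the authors' table, 0.10 without wild type 8.8 Gy replicate 2 (with or without Parp1-/- 6 Gy replicate 1) and 0.14 and 0.12 without sham wild-type replicate 1 or wild type 8.8 Gy replicate 1, and single omissions ran from -0.24 to 0.14. Cd8b1 was 0.15 at 8.8 Gy with slide as a fixed block and 0.23 in Parp1-/- mice with slide or day as a fixed block. Under normexp, which compresses dim signals, Cd8a between doses was 0.39, and between Parp1-/- 6 Gy and wild type 8.8 Gy Cd4 was 0.42 and Dapl1 -0.46. The 8.8 Gy shifts were then -0.39 for Cd4 against Cd8a and 0.88 for Cd8a against Cd8b1, of which the latter passed (exact permutation, adjusted p = 0.0159).

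Replicate numbers did not pair the arrays: over 46 same-numbered pairs of different groups the correlation of deviations had a median of -0.0599, and 33 were at or under 0.1. With the replicate block 7, 8 and 8 members were called, and 1302 genes were lower and 1799 higher at 6 Gy. Scan day as a block was not run for the pairs of members, since the exact test takes no block. The authors' values covered 9 of 10 members well enough for a test.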
